A study of Mus musculus with 12 samples.

Results

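The genes described here are 10 core components of the desmosome: the desmocollins Dsc1, Dsc2 and Dsc3, the desmogleins Dsg1a, Dsg2 and Dsg3, and the plaque proteins plakoglobin (Jup), plakophilin 1 (Pkp1), plakophilin 3 (Pkp3) and desmoplakin (Dsp). They were taken by gene symbol, and all 10 of 10 were found among the 24674 genes of the expression table. RNA was measured in organoids, small cultures that grow in a gel, that were started from basal cells of the mouse prostate. All cultures were labelled as wild type and as strain C57BL/6, so no group differed in genotype, and the study's methods name adult male C57BL/6J mice for its work on primary basal cells. The 4 groups were vehicle, UK5099 alone, butyrate alone, and UK5099 with butyrate (the combination), with 3 samples in each. UK5099 is a drug that blocks uptake of pyruvate by mitochondria through their pyruvate carrier. Butyrate is an inhibitor of histone deacetylases. The labels do not say whether replicates came from separate mice, so the p-values measure the spread between samples, which may be technical.

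Desmosomes are junctions that hold neighbouring epithelial cells together and anchor their keratin filaments. The desmogleins and desmocollins are cadherins that span the membrane and bind those of the next cell. Inside the cell, plakoglobin and the plakophilins bind the cadherin tails, and desmoplakin links this plaque to keratin. In stratified epithelia Dsg2 and Dsc2 are found widely in simple and basal layers, Dsg3, Dsc3 and Pkp1 belong to stratified layers, and Dsg1 and Dsc1 are typical of the upper, differentiating layers. In the prostate, basal cells rest on the basement membrane and luminal cells line the gland.

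Values are TPM, transcript abundances scaled to a total of 1000000 in each sample. Each sample's TPM steps gave back its depth, which lay between 33251829 and 43498916 fragments. A coefficient is a difference on the log2(TPM + 1) scale in a limma fit, given with its SE, and it understates the change of genes with low TPM. A gene passed the test at a Benjamini-Hochberg adjusted p-value under 0.01, and was called when its coefficient was also over 1 or under -1. Statements that groups did not overlap are a description, and the share of all genes that separated likewise was not counted. The scaling matters for these genes. Over the 13345 genes that averaged 1 TPM or more, the median of the coefficients against vehicle was -0.12 under UK5099, -0.30 under butyrate and -0.41 under the combination, and it was 0.01, 0.00061 and 0.0044 when samples were scaled by the median of ratios instead. The first UK5099 sample and the first combination sample stood apart from their replicates. In the 4 pairs with one of them, squared differences in counts were 6.35 to 6.72 times what sampling alone gives (chi-square per degree of freedom). In the other 8 pairs they were 1.88 to 2.62 times. Leaving out both first samples kept the number of called desmosome genes within a factor of 1.5 in every comparison.

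Under UK5099, 8 of the 10 genes passed the test as higher and 1, Dsg2, as lower, and Dsc1 did not pass. Over all genes, 8.24% passed as higher and 24.7% as lower. The median coefficient was 0.48 for the 10 genes and -0.03 for all genes. Of the 10, 2 were called, Dsg3 and Dsc3, beside 1.84% of all genes. Under butyrate, 4 genes passed as higher (Dsc2, Dsc3, Dsg3 and Dsp) and 4 as lower (Dsg2, Jup, Pkp1 and Pkp3), beside 9.7% and 35.9% of all genes. The median coefficients were 0.03 and -0.07. Limma called 0 of the 10, beside 3.54% of all genes. An unadjusted p-value under 0.05 was found for 8, and the share of all genes at that limit was not counted. Voom on fragments called 2, and Dsc3 was called with median of ratios scaling. The share of all genes called was not counted under those settings. Under the combination, 7 genes passed as higher and 2, Dsg2 and Jup, as lower, beside 10.1% and 40.8% of all genes, with median coefficients of 0.28 and -0.11. Of the 10, 3 were called, Dsg3 and Dsc3 as higher and Dsg2 as lower, beside 6.42% of all genes. With median of ratios scaling the counts of higher and lower genes were 8 and 1 under UK5099, 5 and 1 under butyrate, and 9 and 1 under the combination. The matching shares of all genes were then 13.7% and 13.6%, 20.2% and 18.2%, and 23.4% and 20.6%.

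**Figure D1:**
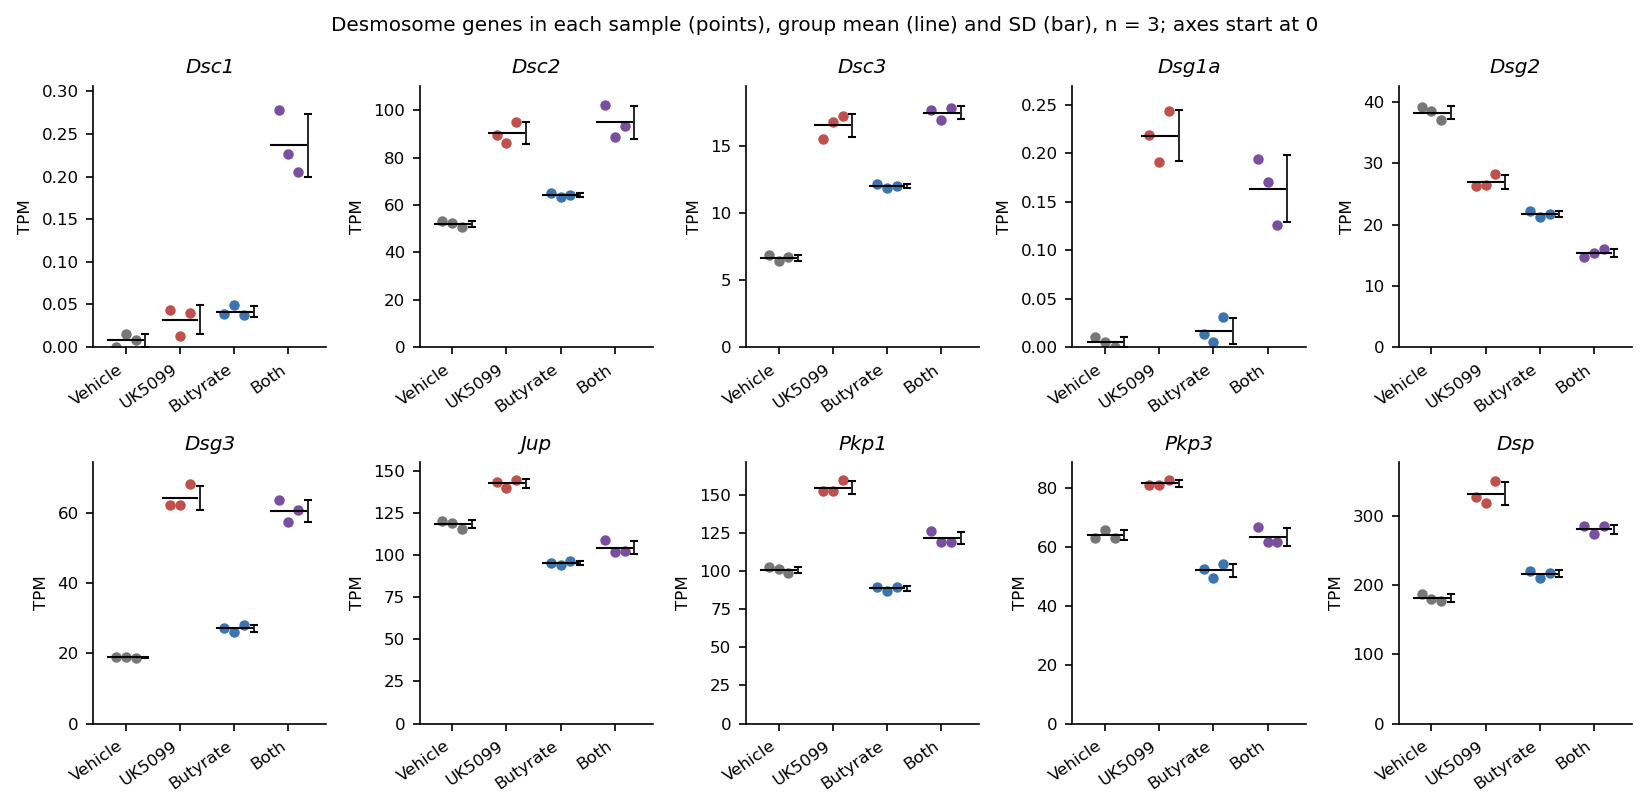
TPM of each desmosome gene (vertical axes, starting at 0) in the 3 samples of each group (horizontal axis; Both is the combination), with the group mean as a line and the SD as a bar. Dsg3 sat between 57.6 and 68.5 TPM in the 6 samples given UK5099 and under 30 TPM in the other 6, while Dsg2 was highest in vehicle and lowest in the combination.

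All 6 cadherin genes lie together on chromosome 18, between 20093987 and 20737579 as the table gives positions (the submitters' processing notes name the GRCm39 build). The desmocollins are read from the minus strand and the desmogleins from the plus strand.

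Dsg3 (chromosome 18, 20643331 to 20680517), the desmoglein of the lower layers of stratified epithelium, had the largest coefficients of the 10 genes under UK5099 and the combination. Its level was 19.0, 18.9 and 18.8 TPM in the vehicle samples. It was 62.5, 62.3 and 68.5 TPM under UK5099, 27.3, 26.2 and 28.1 TPM under butyrate, and 63.8, 57.6 and 60.9 TPM under the combination. The groups given UK5099 did not overlap with those that were not. The mean was 3.41 times that of vehicle under UK5099, 1.44 times under butyrate and 3.21 times under the combination. The coefficients were 1.72 ± 0.05 (adjusted p = 7.97e-09), 0.50 ± 0.05 (adjusted p = 7.86e-06) and 1.63 ± 0.05 (adjusted p = 1.57e-09). Between the UK5099 and combination groups the values overlapped, and the coefficient was -0.08 ± 0.05 (adjusted p = 0.179), but with median of ratios scaling it was 0.27 (adjusted p = 0.000591), so this direction was not set.

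Dsg2 (chromosome 18, 20691131 to 20737579), the desmoglein common to simple epithelia, was the one cadherin among the genes described here that fell in all 3 treated groups. Its level was 39.2, 38.5 and 37.1 TPM in vehicle, 26.3, 26.4 and 28.2 TPM under UK5099, 22.2, 21.3 and 21.7 TPM under butyrate, and 14.7, 15.3 and 16.0 TPM under the combination. No 2 groups overlapped, and every combination sample was below every sample of either single drug. The mean was 0.704, 0.568 and 0.401 times that of vehicle. The coefficients were -0.49 ± 0.04 (adjusted p = 4.8e-06), -0.79 ± 0.04 (adjusted p = 7.56e-08) and -1.27 ± 0.04 (adjusted p = 2.03e-09). With median of ratios scaling they were -0.34, -0.44 and -0.78, so the direction held but the combination was no longer called. An overlapping transcript on the other strand, Gm16090, had at most 41.4 fragments in a sample. Cadherins outside the genes described here went both ways. The mean of Cdh1, E-cadherin, was 0.757, 0.591 and 0.494 times that of vehicle under UK5099, butyrate and the combination. That of the desmoglein Dsg1c, at 0.216 TPM in vehicle, was 0.638, 0.868 and 0.593 times. The fall of Dsg1c under butyrate did not pass the test. Cdh3 was at 1.02, 0.673 and 0.674 times vehicle. The desmogleins Dsg4 and Dsg1b had higher means in all 3 treated groups, Dsg4 at 9.62, 4.44 and 6.87 times vehicle.

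Dsg1a (chromosome 18, 20443868 to 20476408), a desmoglein of the differentiating layers, was near the limit of detection. Vehicle samples held 2.1, 1.1 and 0 fragments, and the sum rounded to 3. UK5099 samples held 52.8, 47.6 and 65.6 fragments, butyrate samples 4.1, 1.3 and 8.7, and combination samples 69.6, 55.1 and 42.8. The depth-adjusted ratio to vehicle was 53.5 under UK5099 (exact 95% counting interval 17.99 to 262), 4.65 under butyrate (1.3 to 25.2) and 49.7 under the combination (16.7 to 244). These intervals cover counting error only. All 11 values above 0 were fractions of a fragment, as happens when reads are divided among near-identical copies, so its level apart from Dsg1b and Dsg1c is uncertain. On the TPM scale the coefficients were 0.28 ± 0.02 (adjusted p = 1e-05) under UK5099 and 0.21 ± 0.02 (adjusted p = 2.58e-05) under the combination, and 0.02 ± 0.02 (adjusted p = 0.624) under butyrate.

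Dsc3 (chromosome 18, 20093987 to 20135409), the desmocollin of basal layers, rose in all 3 treated groups. Its level was 6.84, 6.42 and 6.70 TPM in vehicle, 15.5, 16.7 and 17.2 TPM under UK5099, 12.1, 11.9 and 11.98 TPM under butyrate, and 17.6, 16.9 and 17.8 TPM under the combination. Vehicle and butyrate stood apart from each other and from the groups given UK5099, which overlapped. The mean was 2.48, 1.80 and 2.62 times that of vehicle. The coefficients were 1.19 ± 0.04 (adjusted p = 1.82e-08), 0.76 ± 0.04 (adjusted p = 8.77e-08) and 1.27 ± 0.04 (adjusted p = 1.88e-09).

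Dsc2 (chromosome 18, 20163690 to 20192612), the widely expressed desmocollin, was the most abundant of the 3. Its level was 53.1, 52.3 and 50.7 TPM in vehicle, 89.4, 86.2 and 95.2 TPM under UK5099, 65.1, 63.3 and 64.0 TPM under butyrate, and 102.4, 88.8 and 93.4 TPM under the combination. The order of the groups was that of Dsc3, again with an overlap between UK5099 and the combination. The coefficients were 0.78 ± 0.05 (adjusted p = 1.9e-06), 0.30 ± 0.05 (adjusted p = 0.000734) and 0.85 ± 0.05 (adjusted p = 2.55e-07), and none was called. With median of ratios scaling the combination's coefficient was 1.35.

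Dsc1 (chromosome 18, 20217241 to 20247929), the desmocollin of the upper layers, had at most 13 fragments in a sample outside the combination. Vehicle samples held 0, 3 and 2 fragments, UK5099 samples 10, 3 and 10, butyrate samples 11, 13 and 10, and combination samples 94, 69 and 66. The combination stood apart from the other 3 groups. The depth-adjusted ratio to vehicle was 4.45 under UK5099 (exact 95% counting interval 1.65 to 15.0), 6.78 under butyrate (2.64 to 22.2) and 40.7 under the combination (17.2 to 126). On the TPM scale the combination passed the test, with a coefficient of 0.29 ± 0.02 (adjusted p = 9.97e-07). The single drugs did not, with adjusted p-values of 0.253 and 0.0913.

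The balance within the cadherin pairs was read as a ratio inside each sample, with fragments divided by exonic length, which does not depend on how samples are scaled to each other. The ratio of Dsg3 to Dsg2 was 0.468 ± 0.0102 in vehicle, 2.27 ± 0.0339 under UK5099, 1.19 ± 0.0356 under butyrate and 3.76 ± 0.311 under the combination (SD, n = 3 each). No 2 groups overlapped in this ratio. Of the exonic TPM of Dsg1a, Dsg2 and Dsg3 together, Dsg2 held 68.1% ± 0.464 in vehicle, 30.5% ± 0.321 under UK5099, 45.7% ± 0.75 under butyrate and 21.01% ± 1.33 under the combination (SD, n = 3 each). This sum leaves out Dsg4, at 6.29 exonic TPM in vehicle, 61.4 under UK5099, 30.3 under butyrate and 47.1 under the combination. It also leaves out Dsg1c and Dsg1b, the latter at 0.0135, 14.5, 1.56 and 24.9 exonic TPM. The share of Dsg2 among all desmogleins is therefore lower. The ratio of Dsc3 to Dsc2 moved less, from 0.179 ± 0.00672 in vehicle to 0.256 ± 0.0146, 0.262 ± 0.000765 and 0.258 ± 0.0149 in the 3 treated groups (SD, n = 3 each), which overlapped with each other. These ratios are a description and were not tested.

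**Figure D2:**
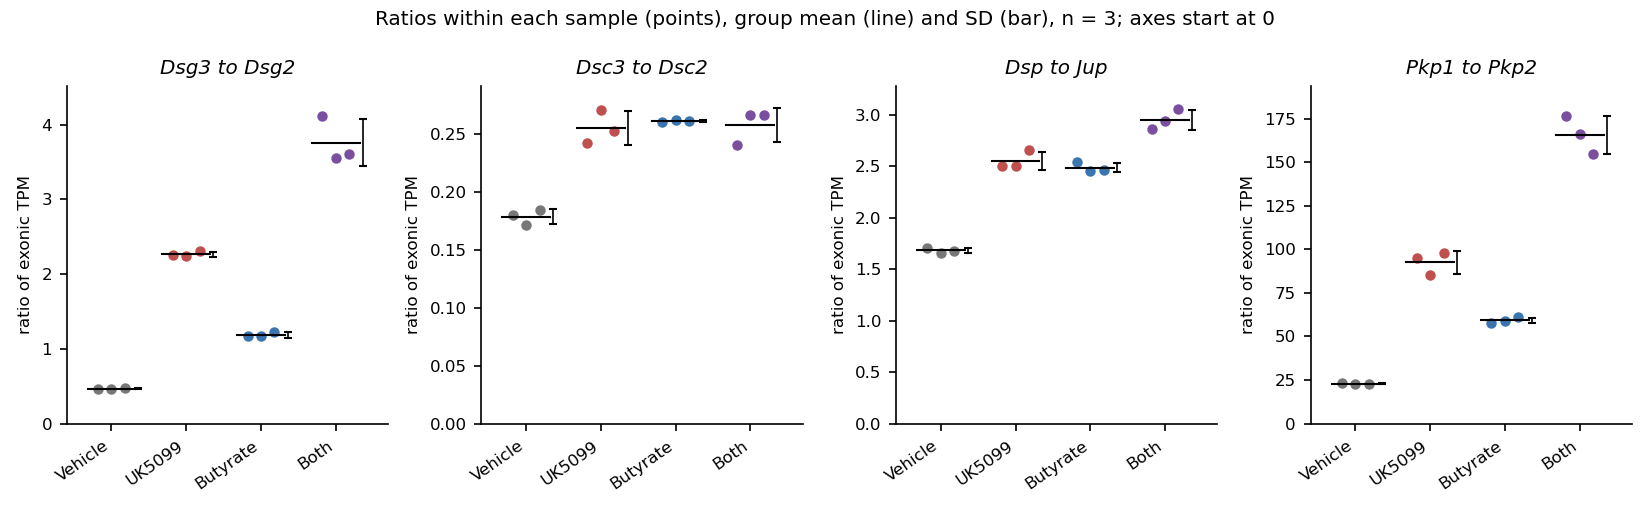
Ratios of exonic TPM between gene pairs (vertical axes, starting at 0) in each sample of the 4 groups (horizontal axis; Both is the combination), with the group mean as a line and the SD as a bar. Dsg3 to Dsg2 went from 0.468 in vehicle to 3.76 in the combination, and Dsc3 to Dsc2 lay between 0.241 and 0.272 in all 9 treated samples.

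The plaque genes lie on 4 chromosomes. Promoter sequence, 250 bases before the transcription start, was found for 2 of the 10 genes in the RefSeq table (GRCm38.p6), desmoplakin and plakoglobin. They are shown because no promoter was found for the other genes, and a link between these sequences and expression was not tested. Capitals mark the GC box, GGGCGG or its reverse complement.
Dsp, chr13:38151044-38151293, plus strand: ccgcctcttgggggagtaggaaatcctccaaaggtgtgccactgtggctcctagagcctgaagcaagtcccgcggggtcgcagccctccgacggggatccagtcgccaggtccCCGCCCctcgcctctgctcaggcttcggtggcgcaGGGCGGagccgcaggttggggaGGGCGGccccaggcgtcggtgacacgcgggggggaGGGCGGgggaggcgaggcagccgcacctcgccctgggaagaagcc
Jup, chr11:100397791-100398040, minus strand: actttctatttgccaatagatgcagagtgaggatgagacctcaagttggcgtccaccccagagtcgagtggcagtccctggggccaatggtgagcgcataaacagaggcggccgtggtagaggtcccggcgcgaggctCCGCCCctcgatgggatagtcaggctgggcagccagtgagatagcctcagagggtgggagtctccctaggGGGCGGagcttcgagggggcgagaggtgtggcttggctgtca
The Dsp window held 4 GC boxes over both strands and the Jup window 2, and 32.7% of 32851 promoter windows of this length held at least 1. G and C made up 72.4% of the Dsp window and 62% of the Jup window, beside a median of 52.4% over all windows. Neither held AACCGGTT (the Grainyhead motif, in 0.116% of all windows) or TGANTCA (the AP-1 motif, in 6.75%), with both strands searched. Neither held the letters TATAAA, which 12.4% of all windows held on either strand.

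Dsp (chromosome 13, 38335270 to 38382554 in the table), the link from plaque to keratin, was the plaque gene that rose most. Its level was 188, 181 and 177 TPM in vehicle, 328, 319 and 351 TPM under UK5099, 221, 211 and 218 TPM under butyrate, and 285, 274 and 285 TPM under the combination. No 2 groups overlapped, and in TPM the combination lay between UK5099 and butyrate. The mean was 1.83, 1.19 and 1.55 times that of vehicle. The coefficients were 0.87 ± 0.04 (adjusted p = 1.32e-07), 0.25 ± 0.04 (adjusted p = 0.000269) and 0.63 ± 0.04 (adjusted p = 2.41e-07), none of them called. With median of ratios scaling the first and last were 1.02 and 1.13.

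Jup (chromosome 11, 100259784 to 100288590), a catenin that also joins adherens junctions, had coefficients under 0.5 in size against vehicle. Its level was 120, 119 and 116 TPM in vehicle, 143, 140 and 145 TPM under UK5099, 95.2, 94.1 and 96.7 TPM under butyrate, and 109, 101.97 and 102.1 TPM under the combination. UK5099 was higher than vehicle, with a coefficient of 0.27 ± 0.03 (adjusted p = 4.04e-05), and was higher under each scaling tried. The coefficient was -0.31 ± 0.03 (adjusted p = 6.6e-06) under butyrate and -0.18 ± 0.03 (adjusted p = 0.000267) under the combination, but with median of ratios scaling the values were 0.05 (adjusted p = 0.216) and 0.32 (adjusted p = 6.37e-06), so neither direction was set. The within-sample ratio of Dsp to Jup, which scaling does not touch, was 1.68 ± 0.025 in vehicle, 2.55 ± 0.0882 under UK5099, 2.48 ± 0.0455 under butyrate and 2.95 ± 0.095 under the combination (SD, n = 3 each).

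Pkp1 (chromosome 1, 135799133 to 135846946), the plakophilin of stratified epithelium, was 103, 101.6 and 98.9 TPM in vehicle, 153, 153 and 160 TPM under UK5099, 89.7, 86.8 and 90.0 TPM under butyrate, and 127, 120 and 120 TPM under the combination. No 2 groups overlapped. The coefficients were 0.61 ± 0.03 (adjusted p = 2.66e-07) under UK5099 and 0.27 ± 0.03 (adjusted p = 2.46e-05) under the combination. Under butyrate the coefficient of -0.19 ± 0.03 (adjusted p = 0.00042) became 0.17 (adjusted p = 0.00065) with median of ratios scaling.

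Pkp3 (chromosome 7, 140658131 to 140670424), a plakophilin found in most epithelial layers, was 63.0, 65.8 and 63.0 TPM in vehicle, 80.9, 80.9 and 82.7 TPM under UK5099, 52.4, 49.5 and 54.0 TPM under butyrate, and 66.8, 61.6 and 61.6 TPM under the combination. Vehicle and the combination overlapped. The coefficient was 0.35 ± 0.04 (adjusted p = 7.41e-05) under UK5099. It was -0.29 ± 0.04 (adjusted p = 0.000123) under butyrate and -0.01 ± 0.04 (adjusted p = 0.808) under the combination, and with median of ratios scaling these were 0.06 (adjusted p = 0.277) and 0.49 (adjusted p = 3.95e-06).

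**Figure D3:**
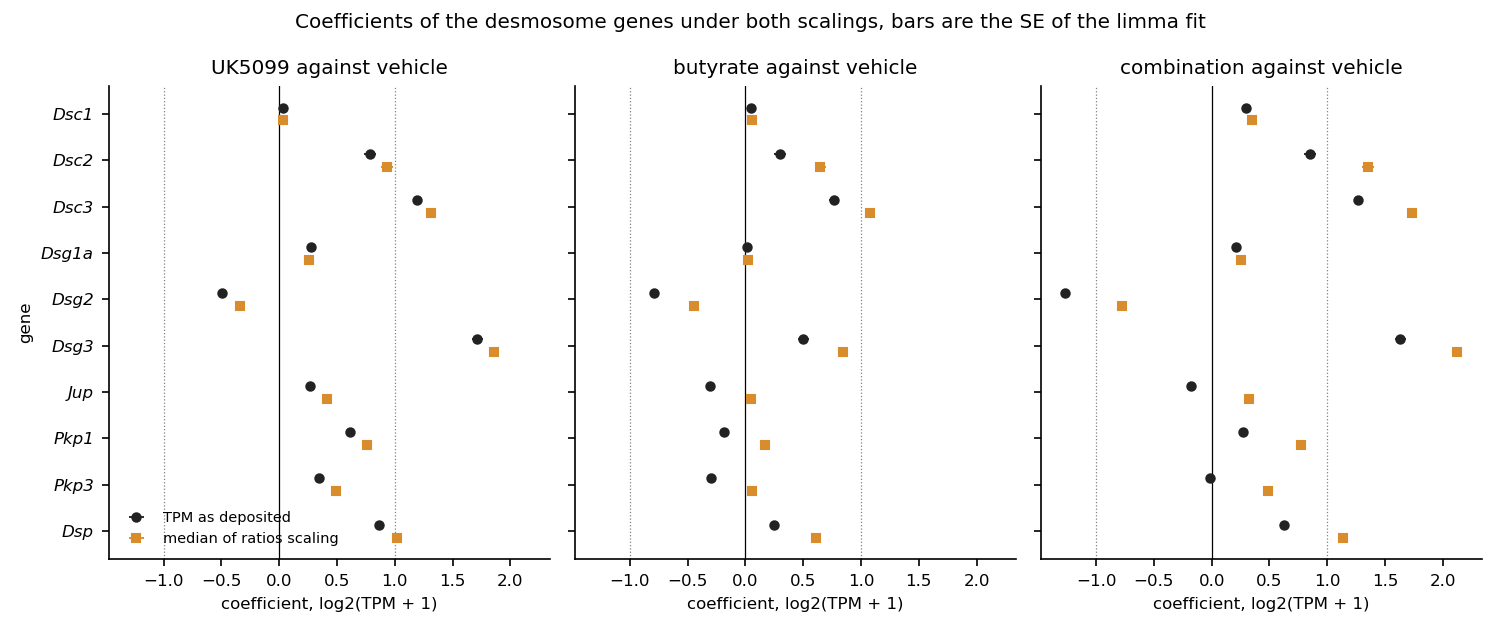
Coefficients against vehicle on the log2(TPM + 1) scale (horizontal axes) for each desmosome gene (vertical axis) under UK5099, butyrate and the combination, with TPM as deposited (black circles) and with median of ratios scaling (orange squares); bars are the SE and dotted lines stand at -1 and 1. Dsg3 and Dsc3 lay right of 0 and Dsg2 left of 0 under both scalings, while Jup and Pkp3 changed sides under butyrate and the combination.

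Levels can be set side by side between genes on the exonic TPM scale, which divides by the length of the exons. In vehicle the order was Pkp1 at 543 ± 8.58, Dsp at 502 ± 12.9, Jup at 298 ± 4.83, Dsc2 at 161 ± 3.03, Pkp3 at 122 ± 3.06, Dsg2 at 121 ± 2.82, Dsg3 at 56.8 ± 0.128 and Dsc3 at 28.7 ± 0.929 exonic TPM (SD, n = 3 each), with Dsc1 and Dsg1a under 0.1. Pkp3 and Dsg2 did not differ beyond their spread. In the combination Dsp came first at 846 ± 16.5 exonic TPM, Dsg3 at 199 ± 9.14 stood above Pkp3 at 132 ± 5.59, and Dsg2 at 53.0 ± 2.49 stood below Dsc3 at 82.3 ± 1.99 (SD, n = 3 each).

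Whether one drug's effect depended on the other was tested by the interaction term, for which 13.4% of all genes passed and 1.01% were called. Of the 10 genes, 4 passed and limma and voom each called 0. An unadjusted p-value under 0.05 was found for 8, and the share of all genes at that limit was not counted. The interaction coefficient was -0.69 ± 0.05 for Dsc3 (adjusted p = 2.03e-05), -0.59 ± 0.07 for Dsg3 (adjusted p = 0.00021) and -0.49 ± 0.05 for Dsp (adjusted p = 0.000173), so the combination was below the sum of the single effects on the log2 scale. Without the first combination sample Dsc2, Pkp1 and Jup passed as well, with adjusted p-values of 0.00852, 0.00763 and 0.00468. Dsc3, Dsg3 and Dsp passed under every scaling tried. For Dsc1 it was 0.21 ± 0.03 (adjusted p = 0.000899), above the sum, but limma-voom on the recovered fragments, where a log scale has no added 1, gave 0.45 (adjusted p = 0.779). For Dsg2 it was 0.02 ± 0.05 (adjusted p = 0.911), and the combination's coefficient of -1.27 lay close to the single coefficients of -0.49 and -0.79 added together.

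Against butyrate alone, adding UK5099 gave 10 of 10 genes that passed, beside 27.5% of all genes, of which 9 were higher and Dsg2 was lower. Jup, at 0.13 (adjusted p = 0.00525), no longer passed when any 1 butyrate sample was left out (adjusted p = 0.0113 to 0.0221). Dsg3, at 1.13 ± 0.05 (adjusted p = 2.21e-07), was the one called, beside 0.908% of all genes. Against UK5099 alone, adding butyrate gave 6 that passed, beside 43% of all genes. Limma called 0, beside 1.97% of all genes. An unadjusted p-value under 0.05 was found for 7, and the share of all genes at that limit was not counted. Voom called 1, and the share of all genes it called was not counted. Dsg2 had the largest of these coefficients, -0.77 ± 0.04 (adjusted p = 1.22e-07), and Dsc1, at 0.26 ± 0.02 (adjusted p = 4.02e-06), was the one higher gene with TPM as deposited. Median of ratios scaling gave 4 genes that passed as higher (Dsc1, Dsc2, Dsc3 and Dsg3) and Dsg2 alone as lower, beside 19.1% and 16.3% of all genes. Dsc2 was then 0.42 (adjusted p = 8.89e-05) and Dsc3 0.42 (adjusted p = 5.2e-06), while Dsp turned from -0.24 (adjusted p = 0.000383) to 0.11 (adjusted p = 0.0147). Between the single drugs, 9 of the 10 passed, each of them lower under butyrate than under UK5099, beside 37.5% of all genes that passed in either direction. Dsg2 no longer passed with median of ratios scaling (adjusted p = 0.022). Dsg3, at -1.21 ± 0.05 (adjusted p = 4.59e-08), was called, beside 1.86% of all genes. These comparisons share samples with those against vehicle.

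Other genes of the desmosome were read from a list of 9: Dsg1b, Dsg1c, Dsg4, Pkp2, Pkp4, Perp, Ppl, Evpl and Cdsn. Under UK5099, 6 passed as higher and 2 as lower, under butyrate 6 and 1, and under the combination 7 and 2. The matching shares of all genes were 8.24% and 24.7%, 9.7% and 35.9%, and 10.1% and 40.8%. The 4 of the list with the largest coefficients were Dsg1b, Dsg4, Evpl and Pkp2. Dsg1b, a further copy of the Dsg1 desmoglein, held 2 fragments in the 3 vehicle samples together, 2358 under UK5099, 270 under butyrate and 5068 under the combination. The depth-adjusted ratio to vehicle was 2250 in the combination (exact 95% counting interval 623 to 18584). Most of its low values were fractional, like those of Dsg1a. Dsg4, a desmoglein known from hair follicle and upper epidermis, was 1.09 ± 0.0763 TPM in vehicle, 10.5 ± 1.07 under UK5099, 4.83 ± 0.228 under butyrate and 7.48 ± 1.21 under the combination (SD, n = 3 each).

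Evpl, envoplakin, which ties desmosomes to the cornified envelope, rose from 16.6 ± 0.615 TPM in vehicle to 62.8 ± 5.01 under UK5099, 45.3 ± 1.58 under butyrate and 85.0 ± 9.57 under the combination (SD, n = 3 each). Pkp2, the plakophilin of simple epithelia and heart, fell like Dsg2. It was 3.80, 3.85 and 3.77 TPM in vehicle, 1.38, 1.54 and 1.41 under UK5099, 1.33, 1.27 and 1.27 under butyrate, and 0.617, 0.619 and 0.664 under the combination. The combination was below every other sample. The coefficients were -0.98 ± 0.03 (adjusted p = 5.75e-09), -1.07 ± 0.03 (adjusted p = 1.16e-09) and -1.56 ± 0.03 (adjusted p = 7.93e-11). The within-sample ratio of Pkp1 to Pkp2 was 22.8 ± 0.394 in vehicle, 92.6 ± 6.62 under UK5099, 59.1 ± 1.65 under butyrate and 166 ± 11.02 under the combination (SD, n = 3 each). Of the plakophilins, the one of simple epithelia moved opposite to Pkp1 in the groups given UK5099.

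**Figure D4:**
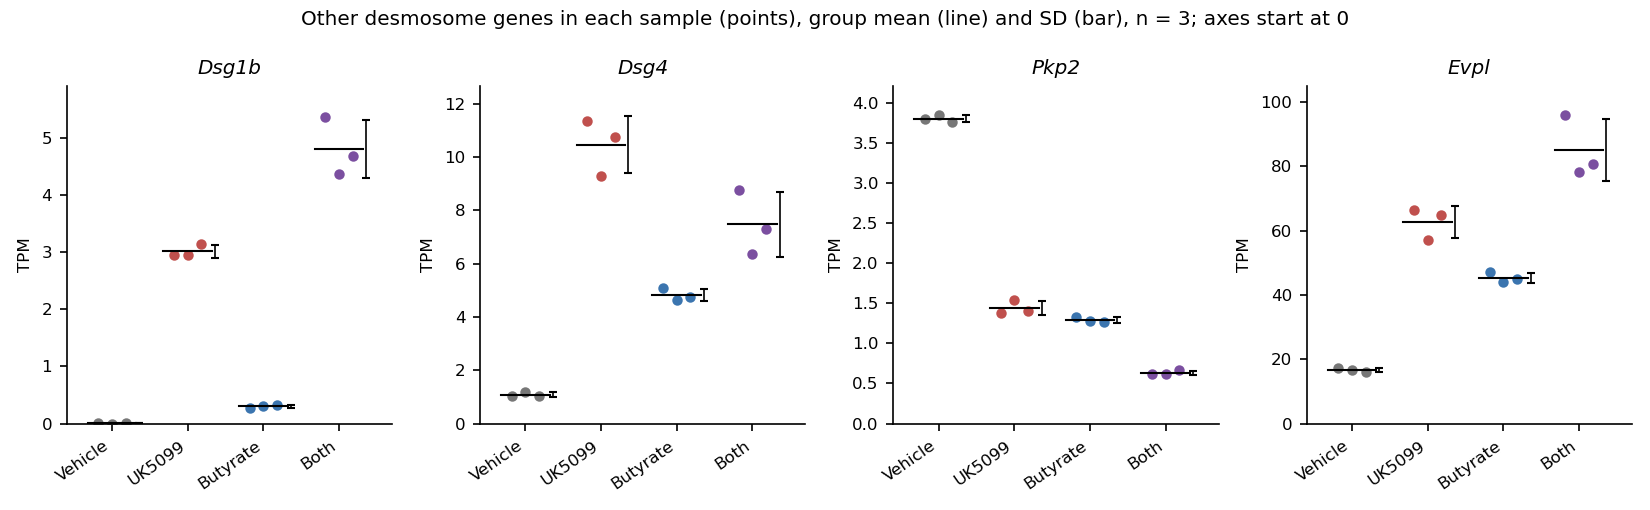
TPM (vertical axes, starting at 0) of the 4 other desmosome genes with the largest coefficients in each sample of the 4 groups (horizontal axis; Both is the combination), with the group mean as a line and the SD as a bar. Dsg1b was near 0 in vehicle and highest in the combination, and Pkp2 fell from 3.80 TPM in vehicle to 0.633 TPM in the combination.

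The adherens junction, the neighbouring junction that is tied to actin, was read from 8 genes. Under UK5099, 2 passed as higher and 4 as lower, under butyrate 1 and 6, and under the combination 2 and 6. Of all genes, 8.24% and 24.7%, 9.7% and 35.9%, and 10.1% and 40.8% passed as higher and lower. With median of ratios scaling the counts of the 8 genes were 3 and 3, 2 and 5, and 2 and 3. The shares of all genes with that scaling are given above. Cdh1, E-cadherin, was 172 ± 3.87 TPM in vehicle, 130 ± 4.11 under UK5099, 101 ± 0.151 under butyrate and 84.9 ± 2.33 under the combination (SD, n = 3 each). Ctnnd1, p120 catenin, fell under butyrate (-0.80 ± 0.03, adjusted p = 1.73e-08) and the combination (-0.72 ± 0.03, adjusted p = 1.86e-08). Its coefficient under UK5099 was -0.08 ± 0.03 (adjusted p = 0.0502) and changed sign with median of ratios scaling. Nectin4 and Nectin1, adhesion molecules of the same junction, rose under UK5099, by 1.00 ± 0.07 (adjusted p = 2.03e-06) and 0.72 ± 0.02 (adjusted p = 1.15e-08).

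Of 9 regulators and enzymes known to act on desmosomal genes or proteins, 5 passed as higher and 2 as lower under UK5099. Under butyrate 1 and 5 passed, and under the combination 2 and 5. The matching shares of all genes were 8.24% and 24.7%, 9.7% and 35.9%, and 10.1% and 40.8%. With median of ratios scaling the counts of the 9 genes were 6 and 1, 6 and 3, and 5 and 2. The shares of all genes with that scaling are given above. Grhl3, a Grainyhead-like factor of epidermal differentiation, was 3.79 ± 0.155 TPM in vehicle, 8.24 ± 0.434 under UK5099, 4.25 ± 0.259 under butyrate and 5.11 ± 0.573 under the combination (SD, n = 3 each). Trp63, the p63 factor of basal epithelium, was 5.23 ± 0.102 TPM in vehicle and 9.59 ± 0.644, 8.46 ± 0.0861 and 8.76 ± 0.361 TPM in the 3 treated groups (SD, n = 3 each). Adam10, a protease that sheds cadherin ectodomains, fell under butyrate (-0.60 ± 0.02, adjusted p = 3.09e-08) and the combination (-0.81 ± 0.02, adjusted p = 2.47e-09), and its UK5099 coefficient of -0.08 (adjusted p = 0.0345) changed sign with median of ratios scaling. Zdhhc5, a palmitoyltransferase, had a coefficient of -0.47 ± 0.03 (adjusted p = 2.74e-07) under the combination that became 0.03 (adjusted p = 0.45) with that scaling.

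The keratins that attach to desmosomes were read from 8 genes, of which 5 passed as higher and 2 as lower under UK5099. Under butyrate 5 and 3 passed, and under the combination 6 and 2. Of all genes, 8.24% and 24.7%, 9.7% and 35.9%, and 10.1% and 40.8% passed as higher and lower. The 2 keratins of simple epithelium fell in every treated group. Krt8 was 916 ± 19.7 TPM in vehicle, 364 ± 13.3 under UK5099, 275 ± 3.42 under butyrate and 119 ± 1.95 under the combination, and Krt18 was 1468 ± 25.2, 748 ± 8.99, 613 ± 6.88 and 359 ± 5.68 (SD, n = 3 each). Krt10 and Krt13, keratins of suprabasal layers, rose in every treated group. Krt10 was 2.64 ± 0.19 TPM in vehicle, 118 ± 12.5 under UK5099, 8.14 ± 0.326 under butyrate and 35.8 ± 5.98 under the combination, and Krt13 was 11.6 ± 1.17, 264 ± 25.0, 97.3 ± 1.2 and 416 ± 81.5 (SD, n = 3 each).

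Markers of cell types moved with these results. The summed TPM of 5 luminal markers, all 5 lower in each treated group, ranged from 4671 to 4854 in vehicle and 2641 to 2785 under UK5099. It ranged from 2415 to 2453 under butyrate and 1487 to 1668 under the combination. This was the order of Dsg2. It was also that of the median coefficient over genes averaging 1 TPM or more (-0.12, -0.30 and -0.41 in the treated groups). The 5 listed as luminal were Krt8, Krt18, Krt19, Epcam and Prom1. The study sorted both basal and luminal cells as EpCAM positive, so Epcam is not particular to luminal cells. The sum of 6 squamous markers ranged from 402 to 415, 1694 to 2086, 909 to 968 and 2692 to 3740, with 5 of 6 called as higher in each treated group. Of all genes, 1.84%, 3.54% and 6.42% were called in either direction under UK5099, butyrate and the combination. The sum of 5 basal markers ranged from 6531 to 6657, 13496 to 13878, 6920 to 7158 and 9983 to 10391, with 5 higher under UK5099, 2 higher and 3 lower under butyrate, and 4 higher and 1 lower under the combination. Under butyrate the basal counts with median of ratios scaling were 3 higher and 0 lower, 2 did not pass, and 4 of the 5 luminal markers passed as lower there. The part of cell composition in the desmosome values was not tested, and in bulk RNA fewer cells of a type and less RNA per cell cannot be told apart. The 3 endothelial markers were each under 0.1 TPM in every sample. So was Ptprc, which defines leukocytes, while Cd68 brought the leukocyte sum from at most 24.8 TPM in vehicle to at most 97.1 TPM in the combination. Mesenchymal markers summed to at most 9.68 TPM in vehicle and 1.14 TPM in the combination. Most of this was Vim, at a mean of 7.98 TPM in vehicle and 0.154 TPM in the combination. Col1a2, Col3a1 and Pdgfra did not pass in the combination (limma adjusted p = 0.0295, 0.0907 and 0.109). Pdgfra was there at 1.33 times vehicle. For muscle, Myh6 was under 0.1 TPM in every sample, and the sum, which is Tnnt2, was at most 51.4 TPM in vehicle and 12.1 TPM in the combination.

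Among 10106 other protein-coding genes that averaged 1 TPM or more, those whose log2(TPM + 1) most resembled the called genes over the 12 samples were found by Pearson's r, as a description, since the samples share 4 groups. Nearest to Dsg3 were Gjb6 (r = 0.999), a gap junction connexin, Prnp (r = 0.998), the prion protein, and Duox1 (r = 0.997), an oxidase. Gjb6 was 0.328 ± 0.0453 TPM in vehicle, 11.2 ± 1.01 under UK5099, 1.65 ± 0.0377 under butyrate and 9.55 ± 0.96 under the combination (SD, n = 3 each). Nearest to Dsc3 were Sox21, Ltb4r1 and Sox15 (each r = 0.996), of which Sox21 and Sox15 are transcription factors. Nearest to Dsg2 were Srcap (r = 0.999), a chromatin remodeller, Cse1l (r = 0.998), a nuclear export receptor, and Aak1 (r = 0.998), a kinase. Among the 10 genes themselves, r with Dsg3 was 0.987 for Dsc2, 0.973 for Dsp, 0.943 for Dsc3 and -0.63 for Dsg2.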

How the data were processed

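RNA-seq was analysed in 12 samples, 3 per group as the labels assign them. The authors deposited 1 table of TPM per gene. The study's methods describe trimming with fastp, alignment with STAR to GRCm38 and TPM from RSEM, whereas the submitters' processing notes name STAR 2.7.9a, Partek and GRCm39. Per the labels, libraries kept the strand and ribosomal RNA was depleted before mRNA was enriched, whereas the methods describe enrichment of mRNA only. The listed length was the genomic span in 100% of genes, so a fragment in a gene with long introns counts for less. Positions are those of the table, of which 2.18% of nuclear spans equalled spans of GENCODE M21 on GRCm38. Exonic lengths came from that annotation by gene ID, and promoters from RefSeq (GRCm38.p6). A comparison of the proteins was planned and was not run.

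Fragments were recovered from the TPM steps, and 58.9% to 61.2% of values above 0 came out whole within 0.02 of a fragment. Depth is the sum of recovered fragments per sample, and more fragments give smaller error. Main tests used limma 3.58.1 in R 4.3.3 on log2(TPM + 1) over all 24674 genes and 12 samples, with UK5099, butyrate and interaction terms, empirical Bayes moderation and Benjamini-Hochberg adjustment. In simulated data 184 of 200 genes changed by UK5099 passed, and 128 of 132 of those with at least 4 TPM. For butyrate 174 of 200 and 108 of 113 passed. Of the unchanged genes 0 were called, which also needs a coefficient over 1 or under -1. The simulation gave all samples the same spread and put in no shift between groups, unlike the data. Alternatives were pseudocounts of 0.1 and 0.01, low-value filters, other scalings, voom on fragments, a replicate block, left-out samples and other limits. The desmosome genes and all other lists were chosen with earlier results of these data known. From each other list, up to 4 genes with the largest coefficients against vehicle were named, and for each called gene its 3 most similar genes. Of 3 leukocyte markers 2 were analysed. Scripts ran in Python 3.11.15 with pandas 2.3.3, numpy 2.4.6, matplotlib 3.10.9 and scipy 1.17.1.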

Additional observations from a re-analysis of the deposited data

Results flagged for a closer look

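The results of 4 genes are given here for effects that differ between groups, because the test of the interaction itself passed at an adjusted p-value under 0.01 in limma. The interaction coefficient was -0.69 for Dsc3 (adjusted p = 2.03e-05), -0.59 for Dsg3 (adjusted p = 0.00021) and -0.49 for Dsp (adjusted p = 0.000173). For each of these genes the difference between UK5099 and no UK5099 was smaller in the presence of butyrate. For Dsc1 the coefficient was 0.21 (adjusted p = 0.000899), and it rests on few fragments outside the combination, at most 13 in a sample. Beside them, 13.4% of all genes passed the same test. Single values of these genes were not tested for outliers, because the groups have 3 samples each.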

How the results depend on the processing

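The direction of Dsc2, Dsc3, Dsg2, Dsg3 and Dsp against vehicle, and their place past the test, held under every setting tried. Counts of called desmosome genes moved as follows, where 2, 0 and 3 were called with UK5099, butyrate and the combination against vehicle, 0 for the interaction, and 1, 0 and 1 for the combination against butyrate, the combination against UK5099 and butyrate against UK5099. With a pseudocount of 0.1 they were 5 for the combination against vehicle, 3 against butyrate, 1 against UK5099 and 2 for butyrate against UK5099. A pseudocount of 0.01 gave 5, 3, 1 and 2 there and 1 for butyrate against vehicle. Both pseudocounts gave 3 for UK5099 against vehicle. Median of ratios scaling gave 3, 1 and 4 against vehicle, with Dsp and Dsc2 called and Dsg2 not called under the combination. Quantile normalisation gave 2, 1 and 3 against vehicle, and 0 for butyrate against UK5099. Voom on fragments gave 2 for butyrate and 6 for the combination against vehicle, 3 for the combination against butyrate, 1 against UK5099 and 2 for butyrate against UK5099, with either library totals or the median of ratios, and 3 and 4 for UK5099. With a coefficient limit of log2 of 1.5 the counts were 5, 2 and 5 against vehicle, 2 for the interaction, 1 for the combination against UK5099 and 4 for butyrate against UK5099. The cause was not tested, but a smaller pseudocount and voom by construction let Dsc1 and Dsg1a have larger coefficients. Shares of all genes called were counted in the main fit only. The counts under other settings therefore cannot be read against those shares.

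Directions that turned were these. With butyrate, Pkp1 became 0.17 with median of ratios scaling, 0.15 with quantile normalisation, and 0.13 and 0.14 with voom on library totals and median of ratios. In the same order Pkp3 became 0.058, 0.072, 0.017 and 0.025, and Jup 0.047, 0.021, 0.0054 and 0.013. With the combination, Pkp3 became 0.49, 0.41, 0.37 and 0.46, and Jup 0.32, 0.16, 0.21 and 0.29. Pkp3 with the combination was also 0.057 with nuclear protein-coding genes only and 0.11 with exonic length, and between -0.052 and 0.00701 when single samples were left out. For the combination against UK5099, Dsg3 became 0.27 with median of ratios scaling, 0.22 with quantile normalisation, 0.221 and 0.24 with voom, and 0.0205 with exonic length. Dsp became 0.114, and 0.0627 and 0.0824 with voom, and Pkp1 became 0.0094 with median of ratios scaling. Dsc1 between the single drugs lay between -9.12e-05 and 0.0218 when single samples were left out. The Dsg2 interaction was -0.0704 with nuclear protein-coding genes only, -0.0104 with voom on library totals and -0.0058 with exonic length, and lay between -0.014 and 0.047 when single samples were left out. Leaving out each sample in turn kept the called counts within a factor of 1.5 of the full set in 84 of 84 cases. Counts of 0 stayed at 0. The Dsc1 interaction did not pass with voom or a pseudocount of 0.01. The replicate numbers did not pair the samples: deviations of same-numbered samples correlated between -0.107 and 0.0294 in 18 pairs, 0 of them over 0.1. With the number as a replicate block, the called counts were again 2, 0 and 3 against vehicle, 0 for the interaction, and 1, 0 and 1. Exonic length was planned from an annotation of the table's build and was run with that of GRCm38 after seeing the data, as was the fit without the 2 samples that stood apart. Depth limits Dsc1 and Dsg1a.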
